A study of Gallus gallus with 4 samples.

Results

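The comparison described here is violet light against normal light in eyes that wore no goggle. Its members are 2 arrays of the 4 in the series, 1 for each light, chosen by the titles of the scanner files. Each array holds a pool of RNA from 4 eyes, and the series has 16 eyes of 8 chicks. The right eye of every chick was covered with a glass goggle from day 6 after hatching and for 7 days, a treatment that induces myopia. The left eye wore no goggle and is the eye measured here. All chicks lived in a cycle with 12 hours of light, one set under normal light and the other also under violet light for 7 days, and tissue was taken on day 13. Buttons with a diameter of 6 mm were punched on the temporal side of the optic nerve. The protocol calls them chorioretinal (retina with choroid), and the titles call them retina. Strain, sex and the wavelength or brightness of either light are not given in the sources used here. An uncovered eye is the fellow eye of a goggled one, so neither pool comes from an untreated chick. The 2 lights were given to different chicks, so light and set of chicks cannot be told apart.

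The 2 deposited sources give different labels to the uncovered normal-light array. Over 43603 probes, the column of the authors' value table labelled uncovered normal light correlated best with the scanner file labelled covered violet light (0.99921, against 0.98125 with the scanner file of its own label). The column labelled covered violet light correlated best with the scanner file labelled uncovered normal light (0.99974, against 0.98153). The columns of the other 2 pools matched scanner files of the same label (0.99962 for uncovered violet light and 0.9995 for covered normal light). Relative to the scanner files, the authors' table thus swaps the label of the uncovered normal-light array with that of the covered violet-light array. The files used here do not settle which source is right. Values below follow the scanner files. Under the table's labels, the same difference would be that of uncovered minus covered eyes under violet light.

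The chick is used to study how light and vision steer eye growth, because a goggle over an eye makes that eye grow long and short-sighted. Bird retinas have red, green, blue and violet cone pigments, and non-visual opsins such as melanopsin and neuropsin (OPN5), the latter sensitive to short wavelengths. Light also resets the retinal clock, in part by inducing immediate-early genes and PER2. The choroid behind the retina is a bed of vessels, smooth muscle, fibroblasts and, in birds, some striated muscle, and it changes its thickness and its retinoic acid output with eye growth.

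A level here is the log2 processed signal of a probe minus that of the array's 75th percentile, so 0 is the brightness of that percentile. A difference is the violet-light level minus the normal-light level. Before scaling, the 75th percentile of the signal was 2108 on the normal-light and 1325 on the violet-light array, and 797.5 to 883 on the covered arrays. The share of spots well above background was 86.0% and 84.4%, and no spot was saturated. The 2 arrays correlated at 0.9884 over probes. The normal-light array stood apart from the covered arrays, with correlations of 0.9797 and 0.9821 against 0.9877 to 0.9926 for every pair without it. Of the 43603 probes, 36383 were well above background on both arrays without an outlier mark. They cover 4891 named genes, of which 3191 had at least 2 such probes and were examined. The median number of probes was 2 and the highest was 11.

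With 1 array a side there is no spread between animals and no test. A gene was counted where at least 2 of its probes differed 2-fold or more (a log2 difference of 1) and no probe of it had the opposite sign. The error that can be seen is that between spots and probes. Among 35 probes printed several times, the SD of a difference was 0.08, and the SD between the different probes of a gene was 0.33. The median difference of the 3191 genes was 0.07, with the 5th percentile at -0.39 and the 95th at 0.56, and 62.2% of genes had a mean above 0.

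Under violet light, 18 of the 3191 genes were at least 2-fold higher by this rule (0.564%) and 23 were lower (0.721%), together 41 (1.28%). The higher genes included 5 crystallins, the clock gene PER2, enzymes of glycolysis and neuronal genes. The lower genes included interferon-induced and other immune genes, collagens and other matrix genes, and smooth muscle genes. Some members of these groups were placed in them after they were counted. Of the 10 other settings tried that keep the scanner labels, one moved the lower genes most: with the normexp background correction, 5 of the 23 met the rule (IFI6, CHRDL1, MYH11, MGP and APOA1). In 162 further genes 1 or more probes were 2-fold higher without meeting the rule, in 38 genes 2-fold lower, and in 0 genes both. Among 1700 genes with a single probe, 37 were 2-fold higher and 50 were lower.

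**Figure D1:**
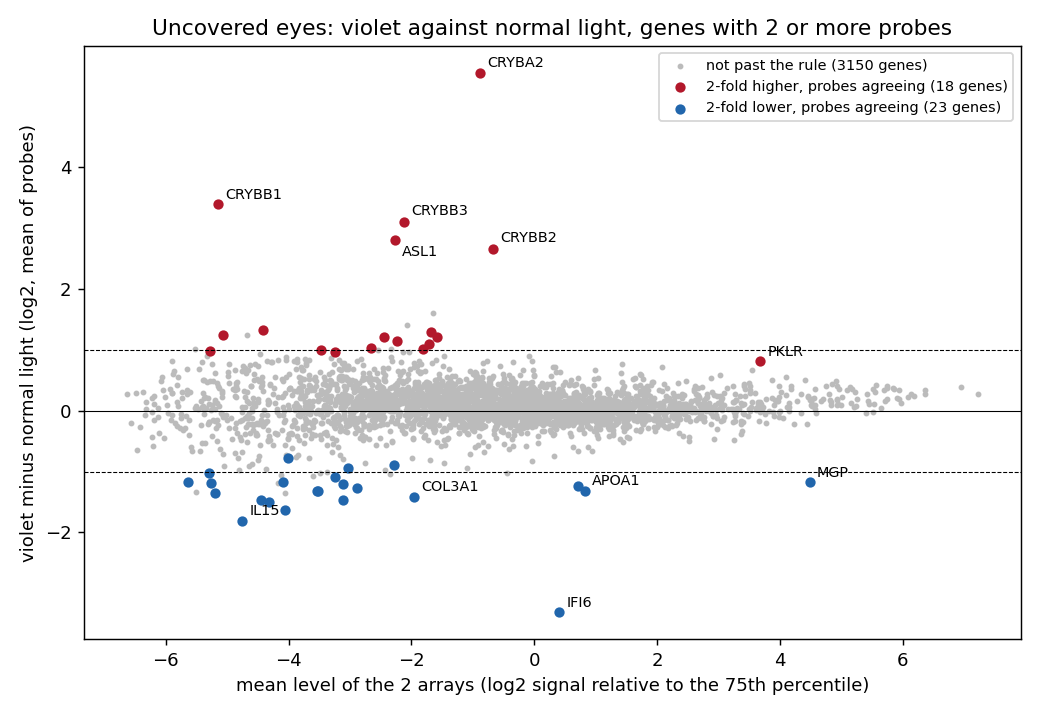
Difference between violet and normal light in uncovered eyes (vertical axis, log2, mean of a gene's probes) against the mean level of the 2 arrays (horizontal axis, log2 relative to the 75th percentile) for 3191 genes. Red points are the 18 genes counted higher and blue points the 23 counted lower. CRYBA2 stands alone at 5.55 and IFI6 at -3.31.

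The crystallins, the refractive proteins of the lens, had the widest differences of the genes counted higher. The β-crystallin gene CRYBA2 had a level of -3.66 on the normal-light array and 1.90 on the violet-light array, with -0.00 and -0.87 on the covered normal-light and covered violet-light arrays. Its difference was 5.55, or 47.0-fold, and its 2 probes gave 5.02 and 6.09. The violet-light level was the highest of the 4 arrays and the normal-light level the lowest, with both covered arrays between them.

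CRYBB1 stood at -6.85 and -3.46 in normal and violet light (10.5-fold), CRYBB3 at -3.67 and -0.57 (8.55-fold), and CRYBB2 at -2.01 and 0.65 (6.29-fold). The 2 probes gave 3.37 and 3.42 for CRYBB1, 2.92 and 3.27 for CRYBB3, and 2.61 and 2.70 for CRYBB2. ASL1, the bird δ-crystallin that is related to argininosuccinate lyase, stood at -3.68 and -0.87 (6.99-fold), and its probes gave 1.91 and 3.70. All 5 genes were higher on the violet-light array than on any other array, by at least 2-fold. The crystallin and lens list had 7 examined members. Of them, 5 were counted higher (0.564% over all genes) and 7 had a mean above 0 (62.2%), with a median of 2.81 against 0.07.

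Among list members with 1 probe, CRYAA differed by 3.75, CRYGS by 1.26 and CRYBA1 by 1.12. Other lens genes did not share the difference. The lens water channel MIP had -0.61, the lens connexin GJA3 -0.41, CRYBA4 -0.13 and CRYGN -0.01, with 1 probe each. The 2 examined members not counted were the lens filament gene BFSP1, at 0.09, and CRYAB, at 0.02, with 2 probes each. The filament gene BFSP2, the lens transcription factor HSF4 and the lens galectin GRIFIN had no probe well above background on both arrays. The list's summed linear signal was 3.88 times the 75th percentile on the normal-light array and 12.4 on the violet-light array, and 5.44 and 4.23 on the covered arrays. Whether lens tissue came with the button was not tested. In these bulk samples, a difference in a marker can be fewer cells of its type or less RNA per cell, and the 2 cannot be told apart.

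**Figure D2:**
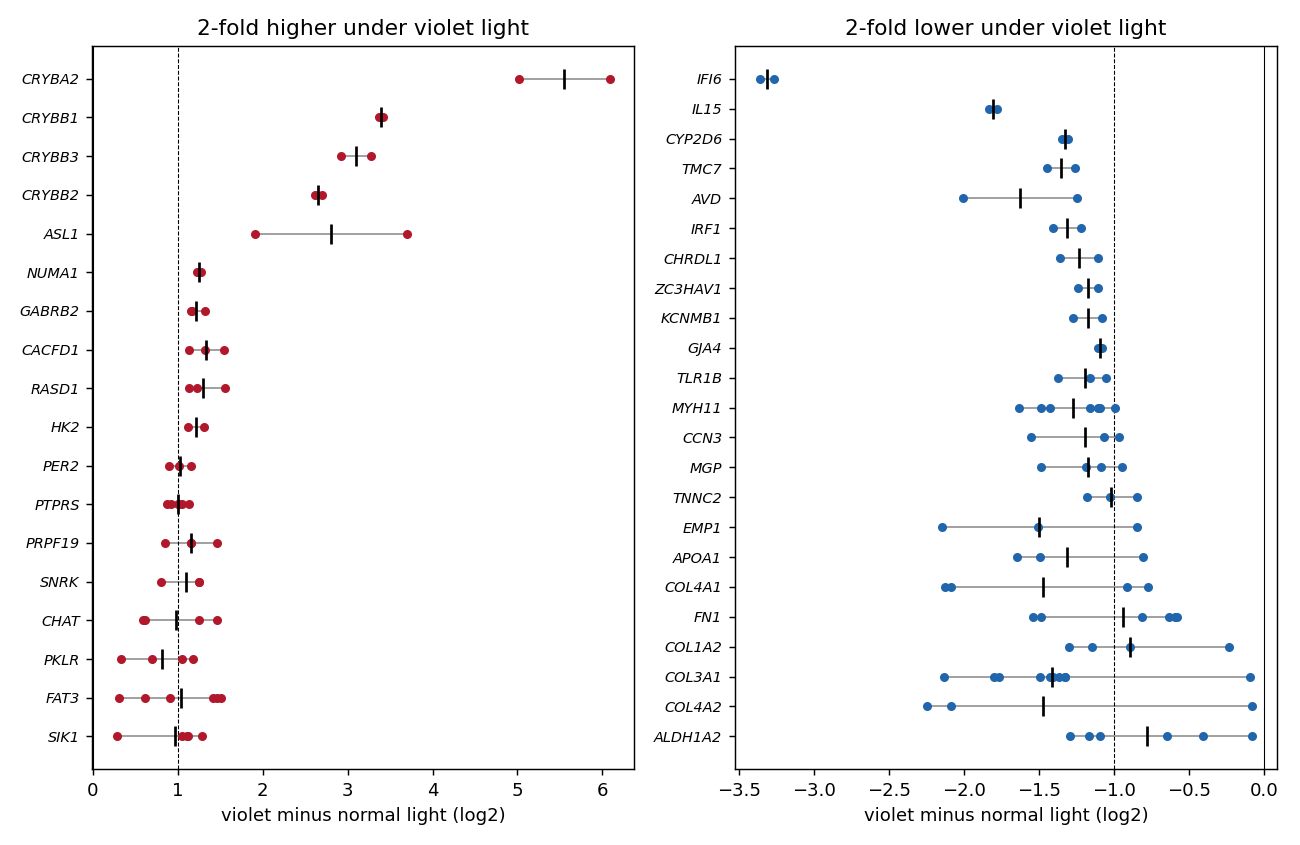
Every probe of the 41 counted genes, as the difference of violet minus normal light on the log2 scale (horizontal axis). Points are probes, black ticks are the gene's mean, and the dashed line marks 2-fold. The 2 probes of CRYBA2 lie at 5.02 and 6.09, while COL4A2 and COL3A1 each have 1 probe near 0 (-0.08 and -0.10).

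One gene of the clock and melatonin list was counted higher. PER2, a repressor in the clock loop that light induces in many tissues, had 3 probes with levels of -0.10, -4.09 and -2.76 on the normal-light array and 0.79, -3.07 and -1.60 on the violet-light array. The mean difference was 1.02, and all 3 probes were higher under violet light. It met the 2-fold rule under 3 of 10 other settings. RASD1 and SIK1 are not on that list and are described here because they were counted. RASD1, a small GTPase known in mouse to modulate the clock's response to light, stood at -2.33 and -1.03 (1.30, probes from 1.13 to 1.55), and it met the rule under all 10. SIK1, a kinase known in mouse to limit the clock's resetting by light, had 5 probes and a mean of 0.97, from 0.28 for its brightest probe to 1.29, and met the rule under 4 of 10.

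PER2, RASD1 and SIK1 had their highest level of the 4 arrays under violet light in uncovered eyes, but none by 2-fold over the covered arrays. The uncovered violet-light array was the highest for 8 of the 18 genes counted higher, and for 22.3% of all 1986 genes with a mean above 0. Against the covered violet-light array, RASD1 stood at -1.03 and -1.12, SIK1 at -2.76 and -2.85, and PER2 at -1.29 and -1.59. All 3 genes had their lowest level on the uncovered normal-light array. The clock and melatonin list had 12 examined members. Of them, 1 was counted higher (0.564% over all genes), 10 had a mean above 0 (62.2%), and the median was 0.27. The melatonin receptor MTNR1A differed by 0.79 with probes of 0.78 and 0.81, the clock activator NPAS2 by 0.58 with probes from 0.05 to 1.18, and the nuclear receptor NR1D2 by 0.59 with probes of 0.03 and 1.15. None of these met the rule.

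EGR1, an immediate-early factor whose retinal level follows the direction of eye growth, had levels of -2.22 and -2.02 in normal and violet light and of -3.66 and -3.36 in the covered arrays. Its 2 probes gave 0.15 and 0.25, a mean of 0.20, and it did not meet the rule. That mean is below the SD of 0.33 between probes of a gene. This SD measures how probes differ, not the error of the mean or the spread between animals. FOS differed by 0.28, BDNF by 0.26 and the growth factor CCN2 by 0.73, while CYR61 differed by -0.26 with probes of -0.27 and -0.25. The immediate-early and activity-induced list had 8 examined members, none counted in either direction, and a median of 0.22 that turned to -0.01 under another setting. Of the opsins, OPN5 had a single probe that was not well above background on any of the 4 arrays. Melanopsin, OPN4, differed by 0.70 with probes of 0.46 and 0.94, and the medium-wave cone pigment OPN1MSW by 0.21 with probes of -0.05 and 0.48. With 1 probe each, OPN1LW, the red cone pigment, had 0.32, OPN2SW 0.08 and the pineal opsin OPNP -0.55. The opsin list had 2 examined members, OPN4 and OPN1MSW, with a median of 0.46, and none was counted. Under the authors' table's labels that median was -0.72, and OPN4 differed by -0.63.

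Of the genes of energy metabolism, 2 were counted higher. HK2, which starts glycolysis, stood at -2.19 and -0.97 (2.32-fold, probes 1.12 and 1.31), and it met the rule under 5 of 10 other settings. PKLR, a pyruvate kinase gene whose entry in the RefSeq table has PKM as a synonym, stood at 3.27 and 4.08 with probes from 0.33 to 1.17, and met it under 7. Of 18 examined genes of the hypoxia and glycolysis list, 2 were counted higher, 15 had a mean above 0 and 12 had every probe above 0, with a median of 0.34. The pyruvate dehydrogenase kinase PDK4 had the highest mean (1.41), and its probes, at 0.10 and 2.73, disagreed. The cytosolic ribosomal protein list was shifted evenly, with 28 of 30 genes above 0, 25 with every probe above 0 and a median of 0.32, and none reached 2-fold. Over all 3191 genes, 0.564% were counted higher, 62.2% had a mean above 0 and 970 had every probe above 0, with a median of 0.07. RPL31 differed by 0.48, RPLP0 by 0.46, RPL3 by 0.44 and RPL36 by 0.42.

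Genes for synapses and neurites were grouped after they were counted, and FAT3 and PTPRS are on none of the lists. Of these genes, the GABA-A receptor subunit GABRB2 stood at -3.06 and -1.84 (probes from 1.16 to 1.31) and met the rule under 6 of 10 other settings. CHAT, which makes acetylcholine in starburst amacrine cells, stood at -5.78 and -4.80 (probes from 0.59 to 1.46). The giant cadherin FAT3, which shapes amacrine dendrites in mouse, differed by 1.04 over 6 probes from 0.31 to 1.51. The receptor phosphatase PTPRS differed by 1.00 over 6 probes from 0.87 to 1.14, and met the rule under 3 of 10 other settings. The list of receptors and channels had 1 of 16 genes counted higher (0.564% over all genes) and 12 with a mean above 0 (62.2%). Its median of 0.15 turned below 0 under another setting. Other genes counted higher were the spindle protein NUMA1 (1.25), CACFD1 (1.34), the splicing factor PRPF19 (1.15, under 5 of 10 other settings) and the kinase SNRK, at -2.27 and -1.17.

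For these 13 genes besides the crystallins, the normal-light array was the lowest of the 4 in every case. NUMA1, GABRB2, CACFD1, HK2, PRPF19, SNRK and FAT3 were at least 2-fold lower on it than on all of the other arrays. Among all 1986 genes with a mean above 0, the normal-light array was the lowest in 84.4%. Among all 1205 genes with a mean below 0, the normal-light array was the highest in 67.5% and the violet-light array the lowest in 38.6%, against 12 and 13 of the 23 genes counted lower. On the violet-light array, GABRB2 stood at -1.84 against -1.38 on both covered arrays.

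**Figure D3:**
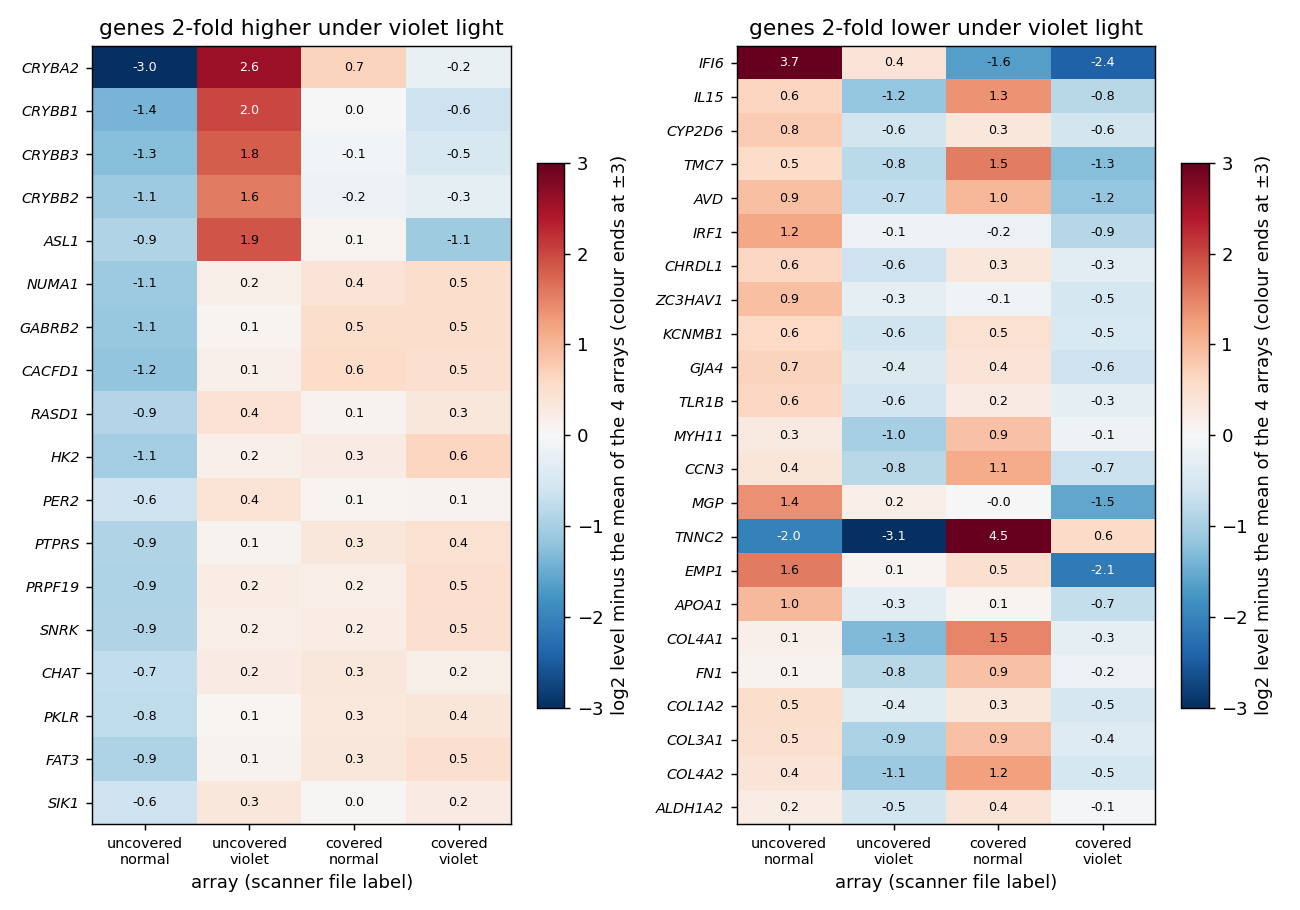
Level of each counted gene on the 4 arrays, as the log2 level minus the gene's mean over the 4, with the value printed in each cell and the colour ending at 3 on either side. Columns are the scanner file labels. The uncovered normal-light array is the lowest in 17 of the 18 higher genes and the highest in 12 of the 23 lower genes, and the uncovered violet-light array is the lowest in 13 of the 23.

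The most negative difference was that of an interferon-induced gene. IFI6 had levels of 2.06 under normal light and -1.25 under violet light, and of -3.27 and -4.05 in the covered arrays. Its difference was -3.31, about 9.94-fold lower, with probes at -3.36 and -3.27, and it met the rule under all 10 other settings. Both uncovered arrays were above both covered arrays. IRF1, a transcription factor of the interferon response, stood at -2.88 and -4.19 (-1.31), and the antiviral zinc-finger protein ZC3HAV1 at -3.51 and -4.68 (-1.17). The interferon-induced list, which does not hold ZC3HAV1, had 9 examined genes. Of these, 2 were counted lower (0.721% over all genes), 7 had a mean below 0 (1205 of 3191), and the median was -0.42. That median was 0.02 with another background correction (normexp). EIF2AK2 differed by -0.58 and TAP2 by -0.51. With 1 probe each, MX1 differed by -3.35, IFI27L2 by -2.01 and TLR3 by -1.21.

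Outside the interferon-induced list, 3 other genes with immune roles were counted lower. IL15 and AVD are on the complement, cytokine and acute phase list. TLR1B is on none of the lists and was grouped here after it was counted. IL15, a cytokine for lymphocytes, stood at -3.85 and -5.66 (3.50-fold lower, probes -1.83 and -1.78). AVD, the biotin-binding avidin that inflammation induces in chickens, stood at -3.25 and -4.87 with a mean difference of -1.62, and TLR1B, a toll-like receptor gene, at -4.67 and -5.87. The complement, cytokine and acute phase list had 2 of 16 genes counted lower (0.721% over all genes). Its median of -0.12 turned above 0 under at least 1 other setting. The macrophage and leukocyte list had 0 of 10 counted and a median of -0.16, which also turned. CCL4, a chemokine, differed by -1.19 with probes at -1.51 and -0.86, while LYZ, lysozyme, differed by 0.34 with probes at 0.27 and 0.41. The cytokine receptor IL1RL1 differed by -1.07.

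Matrix genes were also lower. COL3A1, a fibrillar collagen, had levels of -1.25 and -2.66, and 9 of its 10 probes differed 2-fold or more (mean -1.41). COL4A1 and COL4A2, the chains of basement membrane collagen, stood at -2.39 and -3.86 (-1.47) and at -3.72 and -5.19 (-1.47). Their probes differed in size. Those of COL4A1 ran from -2.13 to -0.77 and those of COL4A2 from -2.24 to -0.08. FN1, fibronectin, differed by -0.94 over 6 probes, and COL1A2 by -0.89 over 4. MGP, a matrix protein that inhibits calcification, was bright on both arrays, at 5.07 and 3.90, with 4 probes from -1.48 to -0.95. CCN3, a matricellular protein, differed by -1.20. MGP and CCN3 are on none of the lists and were grouped here after they were counted.

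Among all 3191 genes, 0.721% were counted lower and 1205 had a mean below 0. Of 23 examined genes of the fibroblast and stromal matrix list, 3 were counted lower and 17 had a mean below 0, with a median of -0.44. With normexp that median was -0.07, and the 3 genes, COL3A1, COL1A2 and FN1, did not meet the rule. Members that went the other way included tenascin TNC (0.93, probes from 0.72 to 1.05), CCN2 (0.73) and TIMP2 (0.64, probes from 0.49 to 0.73). The basement membrane list had 2 of 8 counted lower and a median of -0.16. The smooth muscle and pericyte list had 6 of 6 means below 0, 1 counted lower and a median of -0.62. In it MYH11, the smooth muscle myosin, stood at -2.26 and -3.53 with all 7 probes between -1.63 and -0.99, while TAGLN differed by -0.98 and CALD1 by -0.94. KCNMB1, the smooth muscle subunit of a potassium channel, differed by -1.17, and GJA4, an arterial connexin, by -1.09. KCNMB1 and GJA4 are on none of the lists and are described here because they were counted.

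The endothelium list had 5 examined genes, 0 counted and a median of -0.48 (-0.17 with normexp). With 1-probe members it had 14 genes and a median of -0.83. SOX17 differed by -1.35 (probes -1.93 and -0.77), and 1-probe values were -2.80 for SOX18, -1.51 for CDH5 and -1.44 for LYVE1. The growth factor receptor KDR, the examined member with the most probes, had a mean of 0.51 over 5 probes from -0.11 to 1.28. The summed linear signal, in multiples of the 75th percentile, was 8.15 under normal and 6.14 under violet light for endothelium, 11.6 and 8.63 for smooth muscle, and 25.5 and 19.2 for fibroblast genes. How much of the matrix difference goes with the amount of choroid in the button was not tested.

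**Figure D4:**
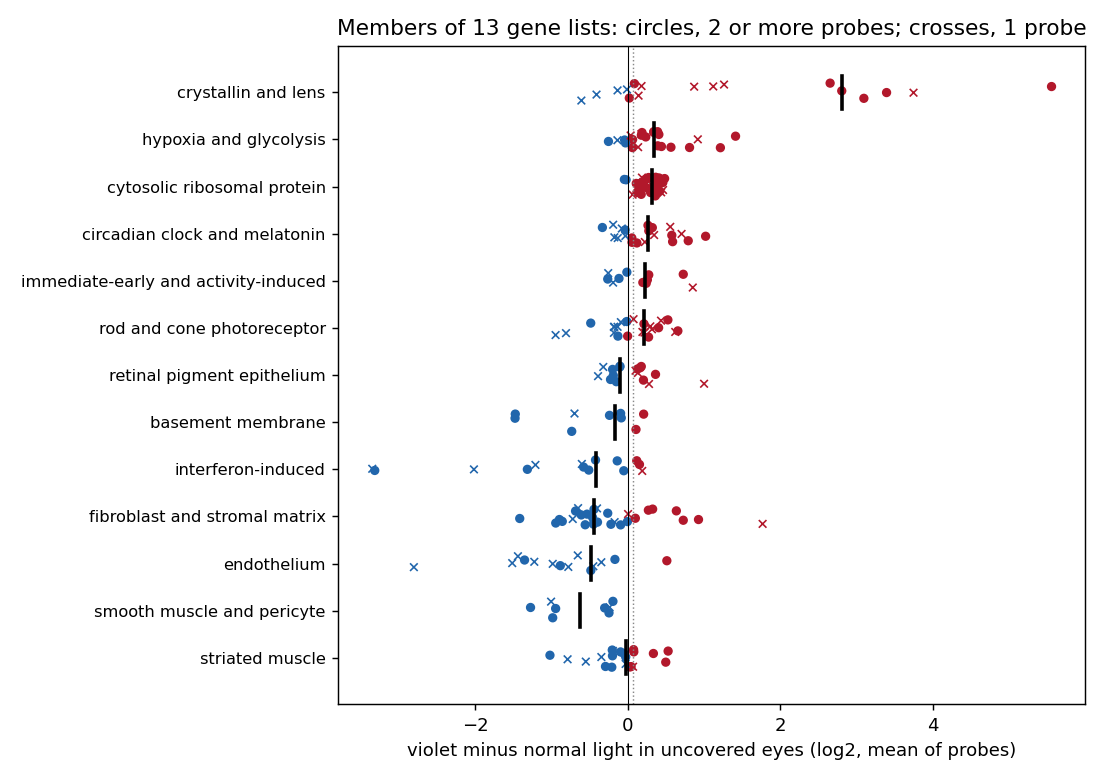
Difference of violet minus normal light in uncovered eyes (horizontal axis, log2) for members of 13 gene lists. Circles are genes with 2 or more probes, crosses genes with 1 probe, black bars list medians over the circles, and the dotted line the median of all genes (0.07). Lens genes spread up to 5.55, and smooth muscle genes all lie below 0.

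The remaining lower genes were single members of their groups. APOA1, the main protein of high-density lipoprotein and a listed eye-growth signal, stood at 1.48 and 0.16 (2.49-fold lower, probes from -1.65 to -0.81). The eye-growth signal list had 13 examined genes. APOA1 was the 1 counted lower (0.721% over all genes), and 9 had a mean above 0 (62.2%). The list's median of 0.15 turned under another setting. BMP4, a bone morphogenetic protein, differed by 1.01 with probes of 0.59 and 1.43. ALDH1A2, which makes retinoic acid in the choroid, differed by -0.78 over 6 probes from -1.29 to -0.08, and CYP26A1, which degrades it, by -0.97 with probes at -1.01 and -0.94. Retinoic acid and visual cycle genes had 1 of 9 counted lower and a median of -0.14. CHRDL1, a secreted antagonist of bone morphogenetic proteins, differed by -1.23, CYP2D6 by -1.33, TMC7 by -1.35 and EMP1 by -1.50.

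TNNC2, the troponin C of fast striated muscle, was counted lower at -4.79 and -5.81. It stood at 1.77 and -2.19 on the covered arrays, so its span across arrays exceeded its light difference in uncovered eyes. The striated muscle list had 1 of 15 counted lower (0.721% over all genes) and a median of -0.02 that turned under another setting. Its summed signals were 7.16 and 6.17, against 23.4 and 7.81 in covered eyes. Without the lens and striated muscle lists, 13 higher and 22 lower genes remained, a setting chosen after seeing the data.

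In the cell type lists of the neural retina, CHAT alone met the rule. The median was 0.21 for 9 photoreceptor genes, 0.19 for 8 Müller glia genes, 0.02 for 6 ganglion cell genes and 0.20 for 11 interneuron genes. The cone arrestin ARR3 differed by 0.41, the cone receptor THRB by 0.66, PDE6G by -0.48 and the glial progenitor factor SOX2 by 0.86. Photoreceptor list members with 1 probe went both ways, with MAFA at -0.94, CNGA1 at -0.81, RXRG at 0.62 and GUCA1B at 0.44. Of the Müller glia genes, the water channel AQP4 stood at 0.03 and 0.67 and at 1.02 and 1.07 on the covered arrays, so its normal-light level was the lowest of the 4. FABP7, also on the Müller glia list, went the other way (-0.51, probes from -0.68 to -0.35). The guanylate cyclase activator GUCA1A differed by 0.53 with probes of 0.10 and 0.96, and GAD1, which makes GABA, by 0.55 with probes of 0.39 and 0.70. The calcium-binding CALB1 of horizontal cells differed by -0.33, and ISL1, a factor of ganglion and bipolar cells, by -0.30. The glutamate receptor subunit GRIA1 differed by 0.73 with 1 of its 2 probes past 2-fold (1.03).

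Other cell types of the button had no gene counted. Pigment epithelium genes had a median of -0.10 over 11, with the visual cycle isomerase RPE65 at 0.18 and the lactate transporter SLC16A8 at 0.37. In the same list SERPINF1 was at -0.22 and SLC24A5 at -0.20. The other lists lay close to 0: scleral cartilage -0.04 (7 genes), myelin -0.05 (8), melanocyte 0.05 (2) and erythroid 0.05 (4). The haemoglobin gene HBBA differed by -0.50, with levels of 2.77 and 2.27. Stress and maintenance lists also showed no counted gene: heat shock 0.08 (21 genes), oxidative stress -0.02 (17), DNA repair 0.11 (14), cell cycle 0.09 (14) and respiratory chain 0.18 (17). NDUFV1, of respiratory complex I, differed by 0.72 with probes of 0.22 and 1.21, and the chaperone CANX by 0.52 with probes from 0.06 to 1.08. Members of the heat shock list that went the other way included PDIA4 (-0.57), SERPINH1 (-0.47) and HSPB1 (-0.43). The cholesterol and lipid list had 1 of 21 counted lower (0.721% over all genes), which was APOA1, and a median of 0.19. Under at least 1 other setting, the medians in this paragraph and those of photoreceptor, Müller glia and ganglion cell genes turned sign or came to 0.00.

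Some probes were well above background on only 1 of the 2 arrays. Of the 43603 probes, 420 were so on the violet-light array alone and 1087 on the normal-light array alone. Before scaling, the normal-light array was the brighter, with a 75th percentile of 2108 against 1325. The smallest difference such a probe allows (the bound) was at least 2-fold for 172 of the 420 and 98 of the 1087. Whether array brightness goes with these counts was not tested. For PTHLH, a parathyroid hormone-like protein, 2 such probes were lower on the violet-light array by at least 3.64-fold, and its 1 other probe differed by -1.03. For FN1 the bound was at least 2.18-fold lower, and for IL15 at least 1.67-fold lower. In the higher direction, the bound was at least 1.56-fold for 2 probes of TERT, the catalytic subunit of telomerase. Its 6 other probes ran from -0.01 to 1.42 with a mean of 0.46, so its probes did not share one size.

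The count of 2-fold higher probes fell as brightness rose. In 4 bins of probes by mean level, from dim to bright, the median difference was 0.21, 0.15, 0.00 and -0.01. The share of probes 2-fold higher was 7.50% in the dimmest bin and 0.231% in the brightest, and that of lower probes 2.25% and 0.352%. Over all 36383 probes, 1162 (3.19%) were 2-fold higher and 412 (1.13%) lower. With only probes at or above the median level, 4 genes were counted higher and 9 lower, so many counted genes are dim. How far brightness accounts for single genes was not tested.

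The same contrast in covered eyes, with the same scanner labels, put 0 genes higher and 45 lower of 3155 (1.43%). The 18 genes higher in uncovered eyes had a median of 0.04 there. All 5 crystallins had the opposite sign there, from -0.14 to -1.15, and 11 of the 18 had the same sign, against 59.95% of all genes above 0. The 23 lower genes had a median of -1.02 in covered eyes, all 23 had the same sign (against 51.2% of genes below 0), and 10 were counted lower there too, among them IL15, AVD, MYH11, MGP, COL3A1, COL4A1, COL4A2 and FN1. These figures describe 2 pairs of arrays, and the difference between the pairs was not tested. Covered and uncovered eyes are fellow eyes of the same chicks, so the pairs are not independent. Under the authors' table's labels, the covered contrast would be that of uncovered minus covered eyes under normal light.

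Under the authors' table's labels, read on the scanner values, 10 genes were higher (0.317%) and 11 lower (0.349%) of 3154. All 5 crystallins stayed higher, from 1.86 for CRYBB2 to 2.96 for ASL1, and MYH11, TNNC2 and COL4A1 stayed lower. Of the 41 genes, 22 kept their sign. The sign turned for IFI6 (2.80), MGP (1.75), EMP1 (1.91), HK2 (-0.47) and GABRB2 (-0.46), and EGR1 would be 2-fold higher under violet light (1.34). PER2 would differ by 0.30 and IL15 by -0.34. The labels therefore decide the direction of 19 of the 41 genes. List medians moved too: endothelium from -0.48 to -0.02, fibroblast and stromal matrix from -0.44 to -0.18, and smooth muscle from -0.62 to -0.28. Striated muscle went from -0.02 to -1.46 and opsins from 0.46 to -0.72, while the crystallin and lens median was 2.35.

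**Figure D5:**
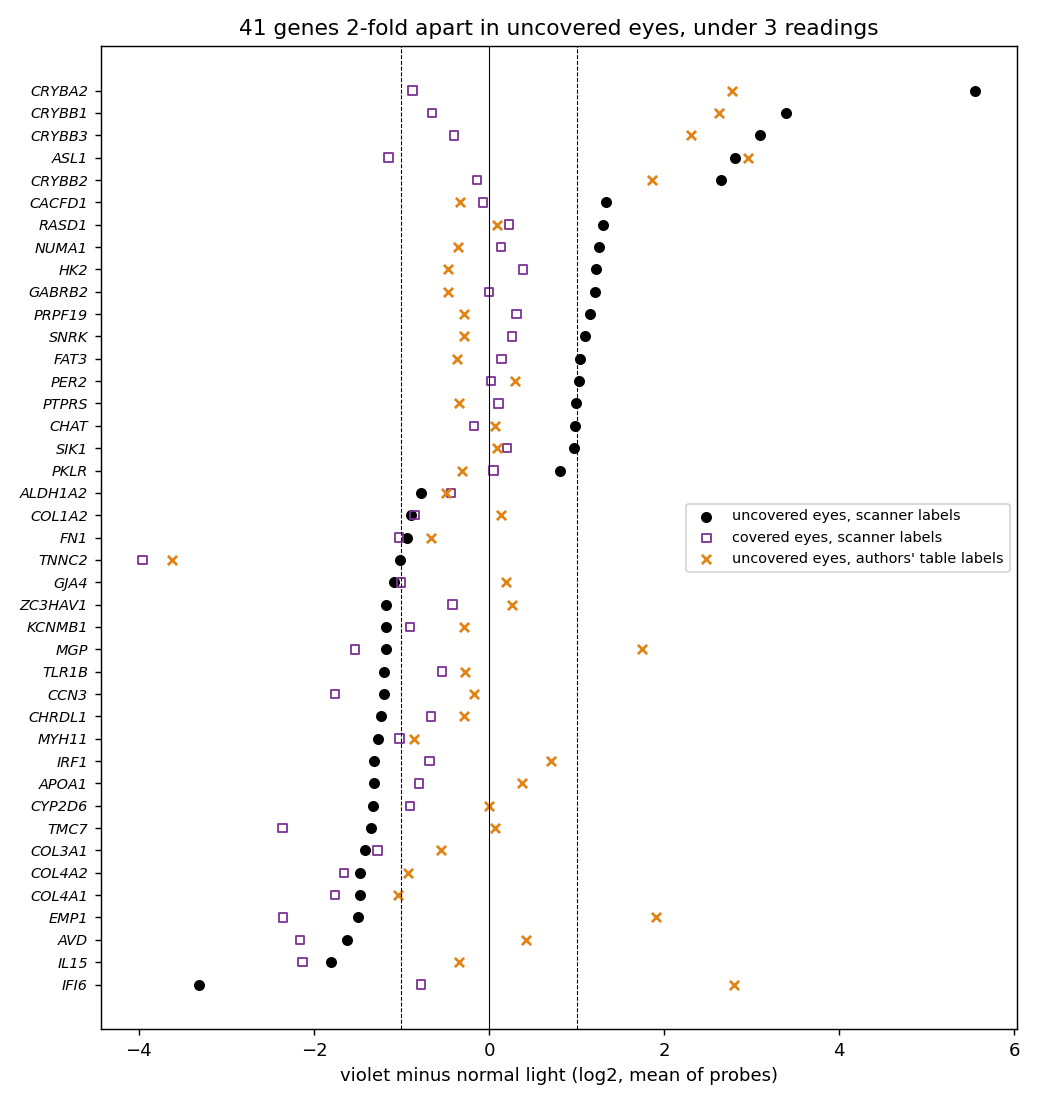
Difference of violet minus normal light (horizontal axis, log2, mean of probes) for the 41 counted genes, with solid circles for uncovered eyes by the scanner labels, open squares for covered eyes and crosses for uncovered eyes by the authors' table's labels. Dashed lines mark 2-fold. Lower genes are lower in all 23 covered values, while the crosses of 13 of them are also below 0.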

How the data were processed

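Each pool's RNA (100 ng) was labelled with Cy3 for 1 array of a single slide. The submitters' processing notes name Agilent Feature Extraction 11.5.1.1. Per the file headers, the deposited intensity of a spot was background-subtracted and detrended by it, with no scaling across arrays. The deposited 0 or 1 marks (another unit) show outliers, saturation and signal above background. The authors' table holds linear intensity values, scaled by a method not given in the sources used here. Its column medians are 218.39, 218.57, 218.35 and 218.67. Set against the scanner files, it is neither centred per gene nor reversed.

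Spots of a probe (43803 to 43603) were averaged as log2 of the deposited intensity, and log2 of each array's 75th percentile was subtracted. Probes were named by their RefSeq accession through RefSeq genes of GRCg7b: 11711 had 1 symbol, 0 several and 31892 none, and 5294 genes were named. The files state an older build, so no coordinates or sequences are given. Older symbols ALAS2, CCNB2, CASQ1 and GSTO1 matched other genes and were left out of the lists. R 4.3.3 with limma 3.58.1 and Python 3.11.15 were used. Alternatives were quantile, cyclic loess and median scaling, normexp (offset 50), filters, probe rules, the authors' table and its labels. Intensities of 4 arrays limit precision, and no p-value is given.

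The members and the 32 lists were chosen with earlier results of these data known. Genes named in the text were the first 20 counted in each direction by their smallest probe difference, EGR1 and OPN5, up to 4 members a list with probes of 1 sign, and up to 5 a direction measured on 1 array only. Named outside that rule, after their values were seen, were list members with 1 probe or none, and BFSP1, CRYAB, KDR, OPN1MSW and TIMP2.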

Additional observations from a re-analysis of the deposited data

How the results depend on the processing

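With 1 array a group, no replicate could be left out. No paired analysis was possible because each group is 1 array. Naming only through accessions was not run, since every name already came from one. The files hold no mean signal, so normexp used the median signal. Against 18 higher and 23 lower genes, there were 11 higher and 32 lower with median scaling, 12 and 31 with quantile, 15 and 32 with cyclic loess, and 15 and 5 with normexp. The share of higher calls was 43.9% in the reported setting, 27.9% with quantile, 31.9% with cyclic loess, 25.6% with median scaling and 75% with normexp. Median scaling moved the median of all genes from 0.07 to -0.10. Probes at or above the median level gave 4 and 9, from fewer probes, and 1 probe a gene gave 60 and 92, from a looser rule. The table's labels on scanner values gave 10 and 11, and the table by its own labels, chosen after seeing the data, gave 13 and 10. All 41 genes (22 with probes at or above the median level) kept their sign in the other 9 settings, and 3 higher and 3 lower genes met the rule in all 10 that keep the scanner labels and all genes. Under the table's labels, on scanner values and in the table itself, the sign turned for APOA1 (0.37 and 0.41), AVD (0.43 and 0.53), CACFD1 (-0.34 and -0.21), COL1A2 (0.14 and 0.23), EMP1 (1.91 and 1.97), FAT3 (-0.36 and -0.28), GABRB2 (-0.46 and -0.39), GJA4 (0.19 and 0.32), HK2 (-0.47 and -0.43), IFI6 (2.80 and 2.89), IRF1 (0.71 and 0.83), MGP (1.75 and 1.74), NUMA1 (-0.35 and -0.20), PKLR (-0.31 and -0.29), PRPF19 (-0.29 and -0.22), PTPRS (-0.35 and -0.23), SNRK (-0.29 and -0.24), TMC7 (0.0699 and 0.20) and ZC3HAV1 (0.26 and 0.39), and for CYP2D6 in the table only (0.11). Where the construction of a setting does not show it, the cause was not tested. Signal close to background limits the dimmest genes, where 7207 probes were left out.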
